A study of Mus musculus with 12 samples.

Results

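The transcripts described are those of 10 genes that drive the meiotic and mitotic cell cycle, the cyclins Ccna1, Ccna2, Ccnb1, Ccnb2, Ccne1 and Ccne2, the kinases Cdk1 and Cdk2, the phosphatase Cdc25c and the kinase Plk1. They were chosen by gene symbol in 2 tables of read counts, and all 10 were found among 51826 entries of the sperm table and among 23502 entries of the testis table. RNA-seq of mouse tissue gave 12 libraries in 4 groups of 3. WT sperm and Xap5l KO sperm came from the cauda epididymis at P56, and the knockout is a global CRISPR–Cas9 deletion of Xap5l (listed as Fam50b) made on C57BL/6J. WT testes and Xap5 cKO testes were whole testes at P16, and the cKO carries floxed Xap5 (listed as Fam50a) with a Cre knocked in at Stra8, which acts in male germ cells, so that Xap5 is not targeted in the somatic cells. The labels call the testis controls WT, whereas the study names Xap5 fl/Y males as controls of the cKO mice. The design text calls the replicates biological, but the labels do not say whether each library is 1 animal or a pool.

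Cyclins switch on the Cdk that they bind, and each wave of cyclin synthesis and destruction moves a cell on through replication and division. E-type cyclins work with Cdk2 at the start of DNA replication, A-type cyclins with Cdk2 and Cdk1 through replication and into division, and B-type cyclins with Cdk1 at division itself. Cdc25c strips inhibitory phosphates from Cdk1, and Plk1 helps to activate Cdc25c and then acts at centrosomes and kinetochores. Male germ cells use this machinery in both settings, first in the mitoses of spermatogonia and later in the meiotic divisions. Ccna1 is largely restricted to the male germ line and is needed for spermatocytes to enter the first meiotic division, and Cdk2 is needed for chromosome synapsis in meiotic prophase. In testes of P16 mice the most advanced abundant germ cells are pachytene spermatocytes, which have not yet divided. Mature sperm no longer transcribe, and the RNA in them is left from earlier stages.

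Proximal promoter sequence is shown for Ccnb2 and Plk1, the pair with the largest rises in Xap5l KO sperm, and for Cdk1, which had the smallest change among the genes that passed the test in testes. The sequences are RefSeq's for GRCm38.p6, in which 7 of the 10 genes had a promoter window, from 250 bases before to 50 bases after the transcription start. Capitals mark the CCAAT box (CCAAT, or ATTGG where it lies on the other strand) and the cell cycle homology region, or CHR (TTTGAA). Position 0 is the first transcribed base. The Ccnb2 stretch is chr9:70421555-70421674 on the minus strand, positions -120 to -1. The Plk1 stretch is chr7:122159315-122159434 on the plus strand, positions -120 to -1. The Cdk1 stretch is chr10:69352939-69353032 on the minus strand, positions -120 to -27.
Ccnb2 promoter: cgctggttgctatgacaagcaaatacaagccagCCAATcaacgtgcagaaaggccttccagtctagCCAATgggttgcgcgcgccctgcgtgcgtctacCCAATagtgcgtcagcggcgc
Plk1 promoter: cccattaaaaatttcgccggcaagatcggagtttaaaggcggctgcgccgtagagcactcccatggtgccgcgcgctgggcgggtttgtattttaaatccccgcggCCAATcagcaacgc
Cdk1 promoter: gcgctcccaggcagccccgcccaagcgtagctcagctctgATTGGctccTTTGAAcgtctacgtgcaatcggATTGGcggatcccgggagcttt

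The 3 genes shown are also the ones with a CHR among the 7 windows, so its presence in all 3 is no separate link to their expression. The CHR is the element through which repressor and activator complexes time genes of the division phase. The 20 bases around the CHR close to the start are at chr9:70421538-70421557 (minus strand) for Ccnb2, chr7:122159458-122159477 (plus strand) for Plk1 and chr10:69352915-69352934 (minus strand) for Cdk1.
Ccnb2 CHR: cgcggtaTTTGAAtcgcgga
Plk1 CHR: cgccgcgTTTGAAttcgggg
Cdk1 CHR: cggcgagTTTGAAactgctg

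Both strands of every RefSeq window were searched for 5 motifs. The CHR was in 3 of the 7 windows of these genes (Ccnb2, Plk1 and Cdk1) and in 17.8% of all 32544 windows. The CCAAT box was in 6 of 7, all but Ccne1, and in 37.4% of all windows. In Ccnb2 it stood at -87, -54 and -21, in Ccnb1 at -99 and -67, and in Plk1 once, at -14. A GC box (CCCCGCCC) was in 5 of 7 (Ccna1, Ccnb1, Ccne1, Cdk1 and Cdk2) and in 17.7% of all windows. The E2F words (TTTCCCGC or TTTGGCGC) were in the Cdk2 window alone of the 7 and in 1.58% of all windows. The MYB words (CAACNG or TAACNG) were in Ccna1, Ccnb1 and Cdk1 and in 49.6% of all windows. These matches describe letters in a window and name no bound factor.

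In the GENCODE annotation of GRCm38, all 10 are protein-coding genes. The counting tool is not given in the sources used here, so the features counted may differ from the exons of this annotation. The 2 tables also differ in the genes they list, with 51826 entries for sperm and 23502 for testes. Mitochondrial genes made up 10.5% to 27.4% of counts in sperm libraries and 0% in testis libraries. Ccna1 lies at chr3:55045469-55055501 and Ccna2 at chr3:36564865-36572150, both on the minus strand. Ccnb1 lies at chr13:100778650-100786570 and Ccnb2 at chr9:70407692-70421547, both on the minus strand. Ccne1 is at chr7:38097984-38107534 on the minus strand and Ccne2 at chr4:11191351-11204779 on the plus strand. Cdk1 is at chr10:69335146-69352938 and Cdk2 at chr10:128697939-128705031, both on the minus strand. Plk1 is at chr7:122159439-122169873 on the plus strand and Cdc25c on chromosome 18, minus strand. Exons of Ccna1, Ccna2, Ccne2, Cdk2, Cdc25c and Plk1 overlap an exon of a gene on the opposite strand, and the use of strand in counting is not given in the sources used here, so reads of each such pair cannot be told apart. Ccnb1, Ccnb2, Ccne1 and Cdk1 have no such overlap. The opposite-strand partners of Ccna1, Cdc25c and Plk1 (4931419H13Rik, Gm3550 and Gm44985) have no entry for testes, so no level of them is given there.

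Libraries held between 32251198 and 52308452 counts. Levels are given as CPM, read counts scaled to a common library size with TMM, a correction based on the bulk of the genes. Fold changes, standard errors (SE) and adjusted p-values came from the quasi-likelihood test of edgeR, adjusted by the Benjamini-Hochberg method over all genes tested in a table. A gene was called when its adjusted p was under 0.05 and its fold change above 2, and genes past the adjusted p alone were counted separately as higher or lower. Counts of the deleted Xap5l in sperm were 574, 440 and 419 in WT and 18, 23 and 8 in Xap5l KO (log2 fold change -5.15, edgeR adjusted p = 0.0118). Counts of Xap5 in testes were 819, 811 and 988 in WT and 673, 616 and 651 in Xap5 cKO (log2 fold change -0.33, adjusted p = 0.0495), so in whole testes the targeted transcript was only slightly lower. Xap5 passed the threshold by little, and its adjusted p was 0.123 without WT testes replicate 3. That library stood nearer to the cKO libraries than the other WT libraries did, with correlations of log2 CPM from 0.948 to 0.952 against 0.919 to 0.925. Xap5l KO sperm replicate 3 stood apart as well, with 10.5% of counts from mitochondrial genes against 18.6% to 27.4% in the other 5 sperm libraries. WT sperm replicate 1 stood nearer to each Xap5l KO library than the other WT sperm libraries did. Its correlations of log2 CPM with the knockout libraries were 0.957, 0.961 and 0.967, against 0.938 to 0.957 for those WT libraries. Its TMM factor of 0.821 was close to that of Xap5l KO replicate 1 (0.808) and below those of the remaining sperm libraries. Each targeted gene was also lower in the other comparison. Xap5l had a log2 fold change of -6.48 in Xap5 cKO testes (edgeR adjusted p = 8.09e-05), and Xap5 had -0.76 in Xap5l KO sperm (adjusted p = 0.0393). The Xap5 value in sperm was not stable. Its edgeR adjusted p was 0.193 when libraries were scaled by their size alone. It was 0.0506 to 0.15 when any 1 library other than Xap5l KO replicate 3 was left out. The study finds Xap5l mRNA from pachytene spermatocytes on, and the part of cell numbers in its fall in testes was not tested.

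Within each group the 10 genes differed widely in level per length, here CPM divided by the exonic length in kb, and their order differed between the tissues. That length joins the exons of all annotated transcripts, from 1.53 kb for Ccnb2 (1 transcript) to 6.22 kb for Cdk2 (7 transcripts). Genes with long joined exons stand lower on this scale, and another choice of length could give another order. The 2 tables were normalized separately and do not list the same genes, while the same lengths served both. Orders are therefore compared and no level is tested across them. In WT sperm Ccna1 led at 13.1 ± 3.68 (SD, n = 3) and Ccnb2 followed at 10.3 ± 1.14, with overlapping libraries. Plk1 came next at 4.62 ± 0.463 and Ccnb1 at 2.15 ± 0.274, each clear of its neighbours. The other 6 genes averaged between 0.408 for Cdc25c and 1.01 for Cdk2. On this scale WT sperm RNA was thus richest in the meiotic A cyclin and in the B cyclin pair with Plk1. Ccna2, Cdk1 and both E cyclins were near the bottom.

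In WT testes Ccnb2 led at 42.9 ± 7.92 CPM per kb (SD, n = 3), clear of Ccne2 at 27.2 ± 1.95 and Cdk2 at 26.4 ± 1.85, which overlapped. Ccna2 at 19.0 ± 2.43, Plk1 at 17.0 ± 2.78 and Ccnb1 at 15.9 ± 1.3 formed a run in which each overlapped the next. Cdk1 followed at 14.0 ± 0.55 and Ccne1 at 6.94 ± 0.523. Ccna1 at 2.84 ± 1.08 and Cdc25c at 1.66 ± 0.204 were the lowest and overlapped. The gene that led in sperm, Ccna1, was thus next to last in P16 testes.

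In Xap5l KO sperm, 3 of the 10 genes were called up against WT sperm, namely Ccnb2, Cdc25c and Plk1, beside 7.59% of the 20945 genes tested. Ccnb1 passed the adjusted p at less than 2-fold, which made 4 of 10 higher, beside 9.02% of all genes. No gene of the 10 was called down (edgeR; 1.27% of all genes were) or lower at the adjusted p (3.07% of all genes). At an unadjusted p under 0.05, 5 were higher and 1 was lower, beside 18.6% and 14.9% of all genes, and DESeq2 also found 4 higher and 0 lower. Both A cyclins, both E cyclins and both Cdks did not pass the test. The median log2 fold change over the 10 genes was 0.39, against -0.08 over all genes tested. In bulk RNA, more cells of a type and more RNA per cell cannot be told apart, and this holds for every difference below.

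**Figure D1:**
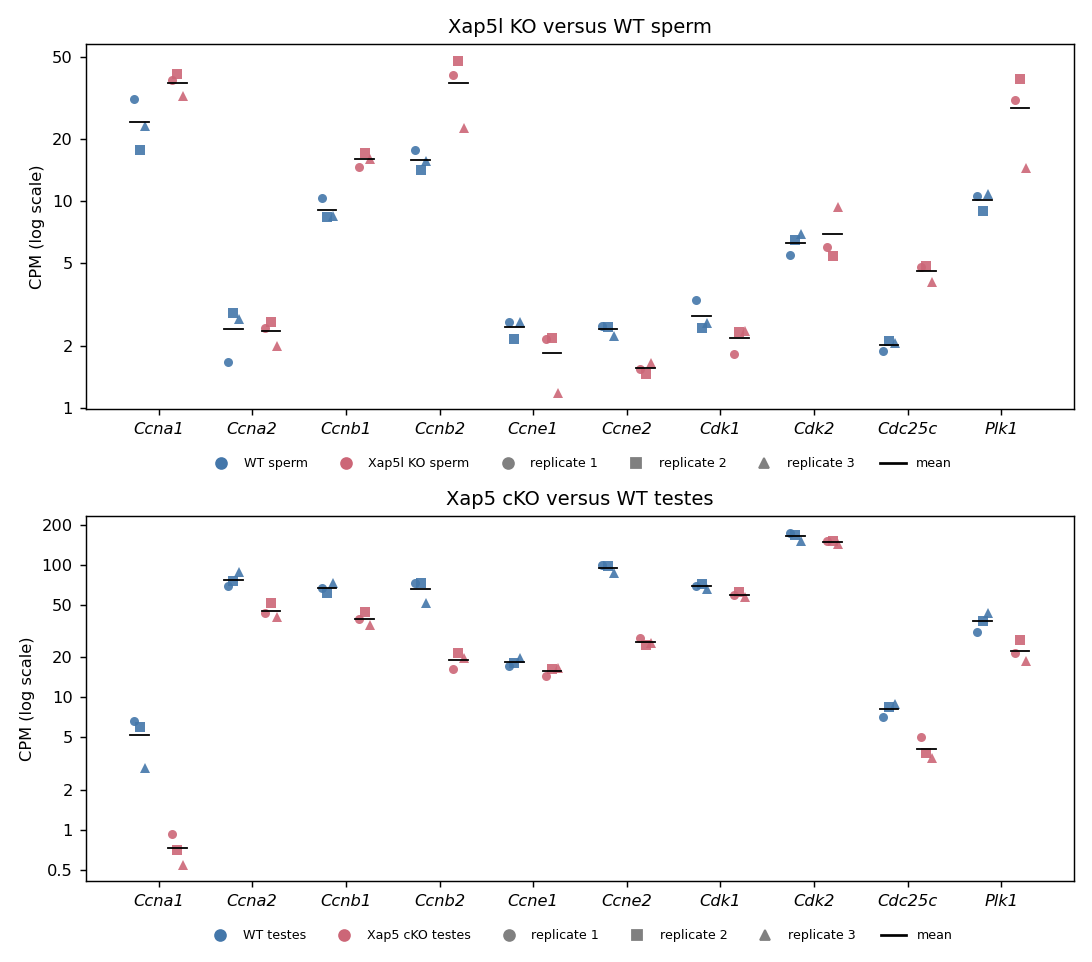
CPM of each of the 10 genes in every library, on a log axis, with sperm above and testes below; symbols mark replicates, colours the genotype and lines the group mean of 3 libraries. In sperm the knockout libraries of Ccnb2, Plk1, Cdc25c, Ccnb1 and Ccna1 lie above every WT library, and in testes 9 of the 10 genes have every cKO library below every WT library, Cdk2 being the exception.

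Of the A cyclins, Ccna1 was the one with a rise in mean. It stood at 31.2, 17.8 and 23.2 CPM in WT sperm and at 38.8, 41.4 and 32.4 CPM in Xap5l KO sperm. Each knockout library was above each WT library, but the gap between the groups was small and WT replicate 1 lay close to knockout replicate 3. The log2 fold change of 0.64 (SE 0.24) did not pass the test (edgeR adjusted p = 0.1), and it did so narrowly without WT sperm replicate 1 (adjusted p = 0.0421) or without Xap5l KO sperm replicate 3 (0.0499). The antisense neighbour of Ccna1, 4931419H13Rik, was at 3.19 CPM in WT and 5.82 CPM in knockout sperm (log2 fold change 0.87, edgeR adjusted p = 0.0957).

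Ccna2, the A cyclin of mitotic cells, stood at 1.67, 2.88 and 2.7 CPM in WT sperm and at 2.43, 2.6 and 1.99 CPM in Xap5l KO sperm. The groups overlapped fully, on 55 to 144 counts a library. The log2 fold change was -0.05 (SE 0.30, edgeR adjusted p = 0.919), and its sign turned under several alternatives.

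Ccnb1, the B cyclin without which cells do not divide, stood at 10.4, 8.34 and 8.48 CPM in WT sperm and at 14.7, 17.2 and 16.1 CPM in Xap5l KO sperm. The groups did not overlap, and the 3 knockout libraries lay close together. Ccnb1 was 1.76-fold higher (log2 fold change 0.82, SE 0.20, edgeR adjusted p = 0.0312). The adjusted p was 0.114 when libraries were scaled by their size alone, and between 0.0677 and 0.149 without WT replicate 2, WT replicate 3, knockout replicate 1 or knockout replicate 2.

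Ccnb2, the other mitotic B cyclin and the more abundant of the pair per length, stood at 17.7, 14.2 and 15.7 CPM in WT sperm. In Xap5l KO sperm it stood at 40.9, 48 and 22.7 CPM. Every knockout library was above every WT library, and knockout replicate 3 was far below the other two. Ccnb2 rose 2.35-fold (log2 fold change 1.23, SE 0.28, edgeR adjusted p = 0.026). The sperm table has a separate pseudogene entry, Ccnb2-ps, at 1.22 CPM in WT and 1.05 CPM in knockout sperm (log2 fold change -0.19, edgeR adjusted p = 0.813).

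Plk1 had the largest rise of the 10. It stood at 10.7, 8.98 and 10.8 CPM in WT sperm and at 31.1, 39.1 and 14.5 CPM in Xap5l KO sperm. The knockout order was that of Ccnb2, with replicate 2 highest and replicate 3 lowest, though still above WT. The rise was 2.78-fold (log2 fold change 1.47, SE 0.33, edgeR adjusted p = 0.0251). Without Xap5l KO sperm replicate 3 the log2 fold change was 1.87 for Plk1 and 1.57 for Ccnb2 (adjusted p = 0.0012 and 0.00155). The antisense neighbour Gm44985 held almost no reads (0 CPM in WT and 0.024 CPM in knockout sperm).

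Cdc25c was low but even across replicates, at 1.88, 2.09 and 2.05 CPM in WT sperm and 4.83, 4.84 and 4.05 CPM in Xap5l KO sperm. The groups were well separated, on 62 to 95 counts in WT and 169 to 268 in knockout libraries. Cdc25c rose 2.27-fold (log2 fold change 1.18, SE 0.24, edgeR adjusted p = 0.0194). Its antisense neighbour Gm3550 was at 0.117 CPM in WT and 0.421 CPM in knockout sperm.

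The E cyclins and the Cdks had no such rise. Ccne2, which with Ccne1 starts DNA replication, stood at 2.49, 2.47 and 2.22 CPM in WT sperm and at 1.54, 1.46 and 1.65 CPM in Xap5l KO sperm. Its groups did not overlap and its mean was lower in the knockout, but the log2 fold change of -0.62 (SE 0.26) did not pass the test (edgeR adjusted p = 0.13). Ccne1 stood at 2.61, 2.14 and 2.61 CPM in WT and at 2.14, 2.17 and 1.18 CPM in knockout sperm, with overlapping groups (log2 fold change -0.43, SE 0.32, edgeR adjusted p = 0.359).

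Cdk1, the partner of the B cyclins, stood at 3.34, 2.42 and 2.57 CPM in WT sperm and at 1.83, 2.33 and 2.35 CPM in Xap5l KO sperm. All knockout libraries were below all WT libraries, but by a gap smaller than the spread within either group (log2 fold change -0.35, SE 0.27, edgeR adjusted p = 0.381). Cdk2 stood at 5.46, 6.47 and 6.93 CPM in WT and at 6, 5.45 and 9.35 CPM in knockout sperm. Its groups overlapped, with knockout replicate 3 the highest of all (log2 fold change 0.14, SE 0.26, edgeR adjusted p = 0.718), and without that library the log2 fold change was -0.06. Over the 10 genes, knockout libraries lay all above WT in 5 and all below in 2, each beside 19.2% of all genes tested, and 3 overlapped.

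The sperm calls depended on 4 of the 6 libraries. Left out one at a time, WT replicate 2, WT replicate 3, knockout replicate 1 and knockout replicate 2 each left none of the 10 genes at an adjusted p under 0.05 in edgeR, while without WT replicate 1 or knockout replicate 3 the 3 calls were kept in number. Over all genes tested, the number called up was 1 without WT replicate 2, WT replicate 3 or knockout replicate 2, 483 without knockout replicate 1 and 2402 without knockout replicate 3, against 1589 with all libraries. The log2 fold changes themselves moved less, from 1.16 to 1.87 for Plk1, from 1.003 to 1.568 for Ccnb2 and from 1.13 to 1.34 for Cdc25c.

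**Figure D2:**
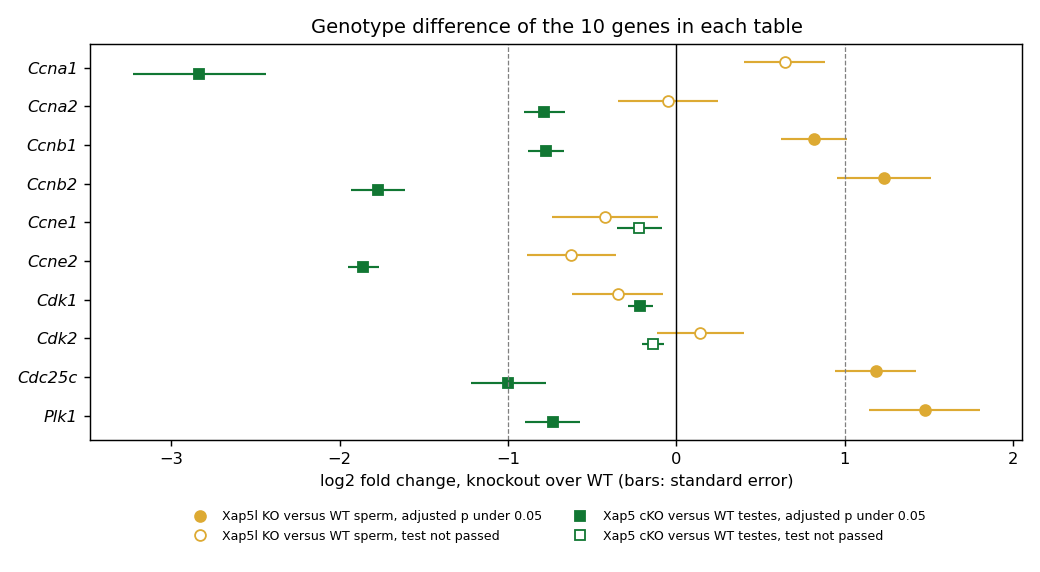
Log2 fold change of each gene in Xap5l KO over WT sperm (circles) and in Xap5 cKO over WT testes (squares), with bars for the standard error and dashed lines at a 2-fold change; filled symbols passed an adjusted p under 0.05 (edgeR). Plk1, Ccnb2, Cdc25c and Ccnb1 lie to the right in sperm and to the left in testes, and Ccna1, Ccne2 and Ccnb2 have the largest falls in testes.

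In Xap5 cKO testes none of the 10 genes was higher than in WT, and 8 of 10 were lower at an adjusted p under 0.05 (edgeR), beside 25% of the 16821 genes tested that were higher and 28.1% that were lower. DESeq2 also found 0 higher and 8 lower, and at an unadjusted p under 0.05 there were 0 higher and 8 lower, beside 27.9% and 30.5% of all genes. Ccna1, Ccnb2 and Ccne2 fell more than 2-fold and were called down, 3 of 10 beside 10.9% of all genes, and 0 were called up, beside 4.15%. Ccne1 and Cdk2 did not pass the test. The median log2 fold change over the 10 genes was -0.78, against -0.01 over all genes tested. All cKO libraries lay below all WT libraries in 9 of the 10 genes, beside 32.4% of all genes, and all above in 0, beside 29.9%, while Cdk2 overlapped.

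Ccna1 fell most. It stood at 6.67, 6.01 and 2.95 CPM in WT testes and at 0.933, 0.704 and 0.547 CPM in Xap5 cKO testes. The groups were far apart, although WT replicate 3 was lower than the other WT libraries, and the cKO values rest on 18 to 30 counts. The fall was 7.13-fold (log2 fold change -2.83, SE 0.40, edgeR adjusted p = 0.000335).

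Ccna2, far above Ccna1 per length in testes, stood at 68.6, 75.4 and 88.1 CPM in WT and 43.2, 51.3 and 40.3 CPM in Xap5 cKO testes. The groups did not overlap, and here WT replicate 3 was the highest library. Ccna2 was 1.72-fold lower (log2 fold change -0.79, SE 0.12, edgeR adjusted p = 0.000599). Its antisense neighbour Exosc9 was lower too (47.4 CPM in WT, 30.9 CPM in cKO, log2 fold change -0.62, adjusted p = 0.00116).

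Ccnb1 stood at 66.5, 61.8 and 72.7 CPM in WT testes and at 39, 43.8 and 34.8 CPM in Xap5 cKO testes, with no overlap. Its log2 fold change was -0.77 (SE 0.11, edgeR adjusted p = 0.000328). Ccnb2 stood at 72.6, 72.9 and 51.7 CPM in WT testes and at 16.5, 21.5 and 19.7 CPM in cKO testes. WT replicate 3 was again the lowest WT library, at well over the cKO level, and Ccnb2 fell 3.42-fold (log2 fold change -1.77, SE 0.16, edgeR adjusted p = 3.57e-05). Of the B cyclins, Ccnb2 had the larger fall.

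Ccne2 stood at 99.4, 98.7 and 87.3 CPM in WT testes and at 28.3, 24.7 and 25.7 CPM in Xap5 cKO testes. Both groups were tight and far apart, and the fall was 3.63-fold (log2 fold change -1.86, SE 0.09, edgeR adjusted p = 8.8e-06). The antisense neighbour Ints8 was at 183 CPM in WT and 117 CPM in cKO testes (log2 fold change -0.65, adjusted p = 4.76e-05), a smaller fall. Ccne1 stood at 17.2, 18.2 and 20 CPM in WT testes and at 14.5, 16.3 and 16.8 CPM in cKO testes, just without overlap, and did not pass the test (log2 fold change -0.22, SE 0.13, edgeR adjusted p = 0.19).

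Of the Cdks, Cdk1 passed the test and Cdk2 did not. Cdk1 was at 69.1, 71.6 and 66.2 CPM in WT testes and at 58.9, 62 and 57.4 CPM in Xap5 cKO testes. The groups did not overlap, and the log2 fold change was -0.21 (SE 0.07, edgeR adjusted p = 0.037). The adjusted p was between 0.0614 and 0.122 when any 1 of the libraries other than WT replicate 3 was left out. Cdk2 was at 174, 167 and 152 CPM in WT and at 152, 152 and 144 CPM in cKO testes, with WT replicate 3 among the cKO values. Its log2 fold change was -0.14 (SE 0.07, edgeR adjusted p = 0.111), and without WT replicate 3 it was -0.19 (adjusted p = 0.0214). Its antisense neighbour Pmel was much less abundant (11.7 CPM in WT, 7.35 CPM in cKO testes).

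Cdc25c stood at 7.06, 8.53 and 8.98 CPM in WT testes and at 5.04, 3.79 and 3.46 CPM in Xap5 cKO testes. The groups did not overlap, and the log2 fold change of -0.9997 (SE 0.22, edgeR adjusted p = 0.00461) lay just short of 2-fold. Plk1 stood at 31.3, 37.7 and 43.5 CPM in WT testes and at 21.5, 27.2 and 18.8 CPM in cKO testes. Its groups did not overlap either (log2 fold change -0.74, SE 0.17, edgeR adjusted p = 0.00495). For both genes WT replicate 3 was the highest library, the opposite of its place for Ccna1, Ccnb2 and Ccne2.

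Without WT testes replicate 3 the same number, 3, was called down and 9 were lower, Cdk2 being added. The log2 fold changes without that library were -3.12 for Ccna1, -1.92 for Ccnb2 and -1.92 for Ccne2, and -0.68 for Ccna2, -0.71 for Ccnb1 and -0.62 for Plk1. The first 3 were thus larger without it and the other 3 smaller.

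The order of levels per length changed with genotype. In Xap5 cKO testes Cdk2 led at 24.0 ± 0.706 CPM per kb (SD, n = 3), clear of the rest. Ccnb2, first in WT, followed at 12.6 ± 1.69 and overlapped Cdk1 at 12.0 ± 0.471. Ccne2 dropped from the second place in WT to the seventh, at 7.5 ± 0.522, just above Ccne1 at 5.95 ± 0.46. Ccna1 was last at 0.397 ± 0.106. In Xap5l KO sperm Ccnb2 at 24.3 ± 8.52 and Ccna1 at 20.5 ± 2.51 led with overlapping libraries, and Cdc25c moved from last to the sixth place, at 0.929 ± 0.0918.

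Ratios of paralogs inside a library do not depend on how libraries are scaled. With 3 libraries against 3, the two-sided exact permutation test cannot give a p below 0.1, and 8 ratios were tested. In testes 3 of the 4 ratios separated the genotypes completely. Ccna1 to Ccna2 counts stood at 0.0972, 0.0797 and 0.0334 in WT and at 0.0216, 0.0137 and 0.0136 in Xap5 cKO testes, 3.93-fold lower in cKO (exact permutation p = 0.1, 0.267 after adjustment over the 8). Ccnb1 to Ccnb2 counts stood at 0.916, 0.848 and 1.41 in WT and at 2.37, 2.03 and 1.76 in cKO testes, 1.98-fold higher (exact permutation p = 0.1, adjusted 0.267). WT replicate 3 was the WT library nearest to the cKO libraries in both.

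Ccne1 to Ccne2 counts stood at 0.173, 0.185 and 0.229 in WT and at 0.512, 0.66 and 0.653 in Xap5 cKO testes, 3.11-fold higher (exact permutation p = 0.1, adjusted 0.267). Cdk1 to Cdk2 counts overlapped, at 0.397, 0.427 and 0.436 in WT and 0.388, 0.408 and 0.398 in cKO testes (exact permutation p = 0.3). In every cKO library the cyclin ratios thus lay outside the WT range, toward less Ccna1, Ccnb2 and Ccne2, and the Cdk ratio lay across it.

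**Figure D3:**
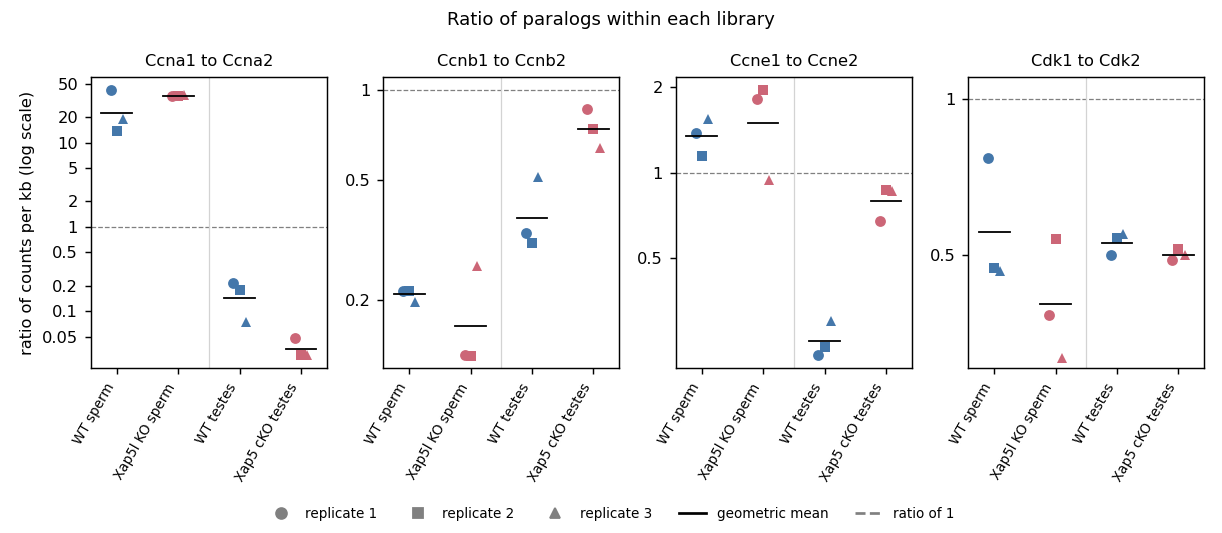
Ratio of paralogs within each library, as counts per kb of exon on a log axis, for the A, B and E cyclins and the Cdks; symbols mark replicates, colours the genotype, black lines the geometric mean and the dashed line a ratio of 1. The cyclin ratios separate WT from Xap5 cKO testes in all 3 cyclin panels, and all sperm ratios overlap between genotypes.

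In sperm none of the 4 ratios separated the genotypes. Ccna1 to Ccna2 counts were 18.7, 6.18 and 8.6 in WT and 16, 15.9 and 16.3 in Xap5l KO sperm (exact permutation p = 0.4). Ccnb1 to Ccnb2 counts were 0.589, 0.589 and 0.541 in WT and 0.36, 0.358 and 0.71 in knockout sperm (exact permutation p = 0.4), where replicate 3 went the other way from the rest. The Ccne1 to Ccne2 and the Cdk1 to Cdk2 ratios gave exact permutation p-values of 0.7 and 0.3. Per kb of exon, Ccna1 was above Ccna2 in every sperm library, by a ratio of 13.8 to 41.6, and below it in every testis library, at a ratio of 0.0302 to 0.216.

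Around the 10 genes, 83 further genes of the cell cycle were read in 9 lists, of which 79 were tested in sperm and 81 in testes. In Xap5l KO sperm 10 of 79 were higher at an adjusted p under 0.05 in edgeR, 6 of them called up, beside 9.02% and 7.59% of all genes tested. None was lower, against 6 lower at an unadjusted p under 0.05 and 2 lower with DESeq2. The median log2 fold change was -0.16, below that of all genes. In Xap5 cKO testes 58 of 81 were lower, 29 of them called down, and 8 were higher, 1 of them called up, with a median of -0.84. Over all genes tested 28.1% were lower, 10.9% called down, 25% higher and 4.15% called up. Without WT testes replicate 3 there were 60 lower and 8 higher. In sperm the number higher was 20 without Xap5l KO replicate 3, 2 without knockout replicate 1 and 0 without WT replicate 2, WT replicate 3 or knockout replicate 2.

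**Figure D4:**
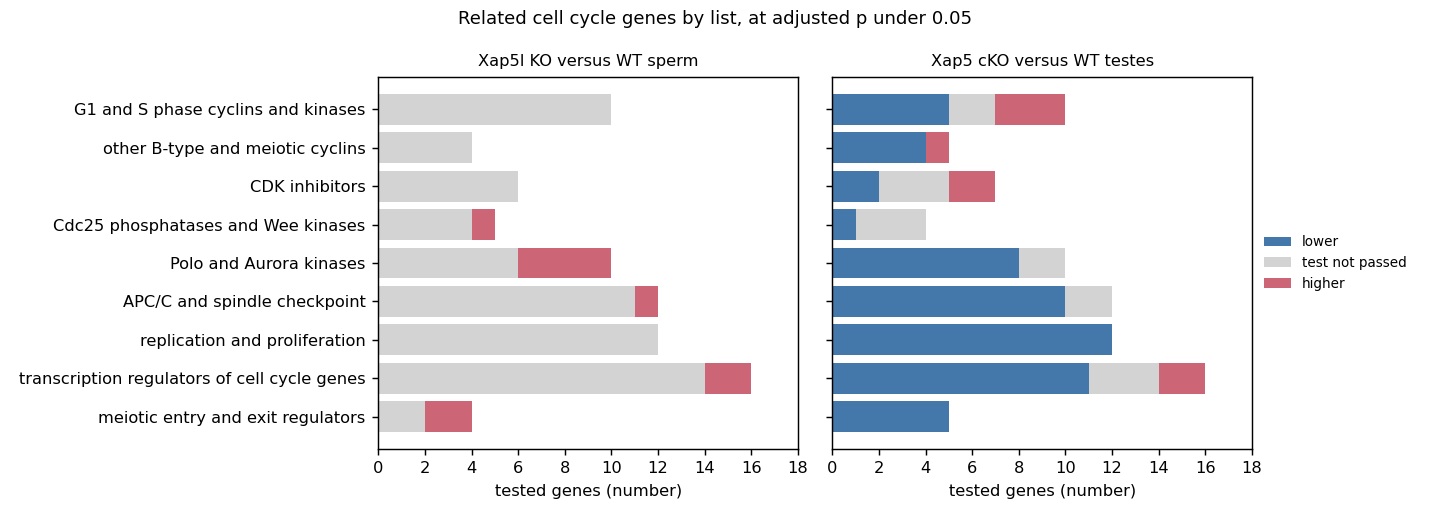
Number of tested genes in each of 9 lists of related cell cycle genes that were lower, did not pass the test or were higher at an adjusted p under 0.05 (edgeR), in sperm on the left and testes on the right. In testes all 12 replication genes and 10 of 12 APC/C and checkpoint genes were lower, and in sperm 4 of 10 Polo and Aurora genes were higher.

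Among partners and upstream enzymes in sperm, 4 of 10 Polo and Aurora genes were higher, beside 9.02% of all genes tested. Over the 9 lists together, the 6 of 79 called up came at about the share of all genes tested (7.59%). The genes below were named for their rise, and most genes of these lists did not pass the test. Aurka, the mitotic kinase that activates Plk1, went from 14.5 ± 2.23 to 26.2 ± 6.17 CPM (SD, n = 3; log2 fold change 0.86, edgeR adjusted p = 0.0443), and Bora, the cofactor of Aurka in that step, rose as well (log2 fold change 0.86, edgeR adjusted p = 0.0342). Plk4 and Birc5 were the other two. Cdc25a, a phosphatase like Cdc25c, was the 1 of 5 called up in its list (log2 fold change 1.25, adjusted p = 0.0318). Bub1, a kinetochore checkpoint kinase, was the 1 of 12 in the APC/C and checkpoint list, from 4.01 ± 0.548 to 10 ± 1.88 CPM (log2 fold change 1.32, edgeR adjusted p = 0.0149). Foxm1 and Mybl2, transcription factors of division genes, were 2 of 16 regulators that rose, with log2 fold changes of 1.26 and 1.15 (adjusted p = 0.0457 and 0.0388), and Foxm1 libraries overlapped.

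The meiotic regulators Hspa2, a chaperone that Cdk1 needs in spermatocytes, and Brdt, a testis bromodomain protein, rose in 2 of 4 tested genes of their list. Hspa2 went from 102 ± 13.8 to 325 ± 153 CPM in sperm (SD, n = 3; log2 fold change 1.67, edgeR adjusted p = 0.0218). Lists of G1 and S phase genes, CDK inhibitors, replication genes and other cyclins had no gene past the adjusted p in edgeR, against 1, 0, 1 and 1 higher and 1, 2, 0 and 0 lower at an unadjusted p under 0.05. Their most abundant genes were Ccnd1, Cdkn1a, Mcm7 and Ccno, with log2 fold changes of -0.17, -0.87, 0.60 and -0.12.

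In testes the falls ran through most lists. All 12 replication and proliferation genes were lower, 4 of them called down. Top2a, the topoisomerase of dividing cells, went from 475 ± 9.85 to 209 ± 7.91 CPM (SD, n = 3; log2 fold change -1.19, edgeR adjusted p = 6.8e-06). Of the APC/C and checkpoint genes 10 of 12 were lower and 6 called down, led by Fbxo43, an inhibitor of the APC/C in meiosis (20.4 ± 6.08 to 3.46 ± 0.666 CPM, log2 fold change -2.56, adjusted p = 6.89e-05). Of the Polo and Aurora genes 8 of 10 were lower and 3 called down, led by Plk4, the centriole duplication kinase (log2 fold change -1.56, adjusted p = 3.98e-05).

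Spdya, Pkmyt1 and Cntd1 were among the genes called down. Spdya, the cyclin-like activator of Cdk2 at meiotic telomeres, went from 84.6 ± 13.7 to 18.5 ± 2.32 CPM (SD, n = 3; log2 fold change -2.19, edgeR adjusted p = 1.27e-05), while Cdk2 itself did not pass the test. Pkmyt1, a kinase that inhibits Cdk1 and so opposes Cdc25c, went from 53.9 ± 18.1 to 8.71 ± 2.96 CPM (log2 fold change -2.63, adjusted p = 0.000123), and it was the 1 of 4 tested genes in its list that was lower. Cntd1, a cyclin-like protein of meiotic crossovers, went from 181 ± 30.3 to 29.3 ± 6.16 CPM (log2 fold change -2.62, edgeR adjusted p = 1.21e-05). All 5 tested meiotic entry and exit regulators were called down, with Hspa2 falling from 556 ± 150 to 132 ± 33.8 CPM (log2 fold change -2.07, adjusted p = 8.74e-05).

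The genes that were higher in cKO testes were few. Ccnb3, a B-type cyclin of early meiosis, was the 1 called up, at 19.5, 16.6 and 14.3 CPM in WT and 51.7, 45.8 and 77 CPM in Xap5 cKO testes. The groups were far apart, and the log2 fold change of 1.79 (SE 0.20, edgeR adjusted p = 0.000105) was opposite in sign to those of Ccnb1 and Ccnb2. A second entry, Ccnb3-2, gave nearly the same values (20.4 CPM in WT, 60.5 CPM in cKO), so the reads of the pair may be shared and the level is uncertain. The other 7 were Ccnd2, Ccnd3, Cdk4, Cdkn1b, Cdkn1c, Rbl2 and Lin37, all under 2-fold. Of the 16 transcription regulators 11 were lower and 3 called down, with E2f8, a repressor of the replication program, at a log2 fold change of -1.63 (adjusted p = 0.000435). Of the G1 and S phase cyclins and kinases 5 of 10 were lower and 3 higher, and of the other B-type and meiotic cyclins 4 of 5 were lower and 1 higher. Among CDK inhibitors 2 of 7 were lower and 2 higher, the lower ones both called down, with Cdkn2a at a log2 fold change of -1.36 (adjusted p = 7.87e-05).

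Many markers of germ cell stages and somatic cells moved with genotype in testes, while in sperm it was mainly pachytene and round spermatid markers. Their part in the differences above was not tested. In testes all 8 pachytene spermatocyte markers were called down, and their sum went from 1050 to 2180 CPM in WT libraries to 142 to 206 CPM in cKO libraries, with Ldhc leading (432 ± 193 to 5.89 ± 2.59 CPM). WT testes replicate 3 held the 1050 CPM. Leading here means highest in CPM among the markers of a list. Markers of leptotene and zygotene spermatocytes were lower in 8 of 8 (1680 to 1950 CPM in WT, 820 to 1140 CPM in cKO), with Sycp1 leading. Markers of spermatogonia were lower in 6 of 8 and higher in 1 (652 to 755 CPM in WT, 491 to 523 CPM in cKO), with Uchl1 leading. Round spermatid markers were lower in 2 of 5 tested, Tex101 leading (572 CPM in WT, 282 CPM in cKO). The 3 markers of this list not tested, Acrv1, Catsper3 and Spaca7, were at 0.125, 0.091 and 0 CPM in WT testes as well. As pachytene spermatocytes are the most advanced abundant germ cells at P16, falls in this list are not read as a loss of round spermatids. The study reports that cKO testes lack spermatids, with the spermatid staining done in adults, so Tex101 does not mark round spermatids alone here. The 1 elongating spermatid marker tested, Gapdhs, did not pass, with Prm2 and Prm3 at 0 in every library.

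Most Sertoli cell and leukocyte markers of the testis went the other way, and the other lists were less uniform. Over all genes tested in testes, 25% were higher and 28.1% lower. Sertoli cell markers were higher in 7 of 8 (1030 to 1140 CPM in WT, 1790 to 1870 CPM in cKO), with Cldn11 leading, and leukocyte markers in 6 of 7 tested (98.8 to 147 CPM in WT, 205 to 274 CPM in cKO), with Lyz2 leading. Leydig cell markers were higher in 3 of 7 and lower in 1, Insl3 leading. Peritubular myoid markers were higher in 3 of 5, Acta2 leading. None of 5 tested erythroid markers passed (edgeR; none at an unadjusted p under 0.05 either), Hbb-bs leading. Of the epididymal markers Lcn5, Lcn8, Lcn9 and Crisp1 were at 0 in every library and the 1 tested, Cst8, was higher, and of the general epithelial markers 2 of 5 tested were higher and 1, the leading Epcam, lower.

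In sperm, round spermatid markers were called up in 6 of 8 (96 to 140 CPM in WT, 208 to 390 CPM in Xap5l KO) and pachytene markers in 5 of 8 (1640 to 2630 CPM in WT, 3320 to 3550 CPM in Xap5l KO), with Acr and Pgk2 the most abundant. Over all genes tested in sperm, 7.59% were called up. Pgk2 itself did not pass (1027 to 1390 CPM, edgeR adjusted p = 0.415). At an unadjusted p under 0.05, 6 pachytene markers were higher and 1, Piwil1, was lower (15.2 to 7.76 CPM, log2 fold change -0.97, edgeR adjusted p = 0.104). Xap5l KO replicate 3, the lowest knockout library for Ccnb2 and Plk1, held the 208 CPM. The same library held the highest knockout sums of pachytene markers (3550 CPM) and of elongating spermatid markers (48300 CPM). Elongating spermatid markers, the defining transcripts of late germ cells such as Prm2, were abundant in every library (24200 to 49900 CPM in WT, 28100 to 48300 CPM in Xap5l KO), and 1 of 8 was called up. Their median log2 fold change was 0.73, and 2 were higher and 0 lower at an unadjusted p under 0.05. The sums mix opposite moves in means that did not pass the test, with Odf1 going from 17960 to 11110 CPM and Prm2 from 10180 to 19820 CPM (edgeR adjusted p = 0.382 and 0.151). Spermatogonial markers (24.7 to 27.2 CPM in WT, 26 to 28.7 CPM in Xap5l KO) and leptotene and zygotene markers (16.6 to 25.6 CPM in WT, 20.4 to 26.9 CPM in Xap5l KO) had no gene past the adjusted p in edgeR, against 1 and 0 at an unadjusted p under 0.05, with Kit and Sycp1 leading.

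Of the markers of other cells in sperm, 1 each in the leukocyte, epididymal and Sertoli lists passed the test, all lower in Xap5l KO. Over all genes tested 3.07% were lower and 1.27% called down. Leukocyte markers summed to 777 to 838 CPM in WT and 174 to 513 CPM in Xap5l KO (1 of 8 called down, Lyz2 leading), and erythroid markers to 4510 to 22800 CPM and 1640 to 5550 CPM (Hbb-bs leading). Epididymal markers summed to 5200 to 7220 CPM and 3910 to 5250 CPM (1 of 4 tested called down, Crisp1 leading), and general epithelial markers to 364 to 434 CPM and 270 to 323 CPM (Krt19 leading). Sertoli markers summed to 16.9 to 22.6 CPM and 6.76 to 18.1 CPM (1 of 6 tested called down, Sox9 leading), Leydig markers to 15.2 to 34 CPM and 7.24 to 14.8 CPM (Insl3 leading) and myoid markers to 8.72 to 10.2 CPM and 6.68 to 12.6 CPM (Acta2 leading). No erythroid, general epithelial, Leydig or myoid marker passed the adjusted p in edgeR, against 4, 2, 2 and 0 lower at an unadjusted p under 0.05.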

How the data were processed

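Poly(A) RNA was sequenced from 12 libraries, 3 in each of the 4 groups that the labels give. The authors trimmed reads with Trimmomatic 0.36, checked them with FastQC 0.11.2, mapped them to GRCm38 with HISAT2 2.1.0 and deposited raw read counts of each gene as whole numbers, with a separate table for each tissue. Per the submitters' notes they tested with DESeq2 1.12.4. The counting tool, the treatment of reads that map to several genes and the use of strand are not given in the sources used here, so values of overlapping genes and of near-identical copies are uncertain.

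Each tissue was fitted alone, with genotype as the only term. Genes were filtered with filterByExpr, scaled by TMM and tested with edgeR 4.0.16 (R 4.3.3). P-values measure the spread between these libraries. Ratios of paralogs used 0.5 counts added to each count and a two-sided exact permutation test. Positions and exonic lengths came from GENCODE and promoters from RefSeq. Scripts were checked on simulated data. The 10 genes, the 9 lists of related genes, the 12 marker lists and the tests were chosen with earlier results of these data known. Genes were named by rule: the 10 genes, Xap5 and Xap5l, in each related list the called gene with the largest rise and the largest fall at 1 CPM or more (or else the most abundant gene), and the most abundant marker of each list. Bora, Brdt, Mybl2, Plk4, Birc5, Piwil1 and Odf1 in sperm were named after their values were seen. So were the 7 genes higher by less than 2-fold in testes, Prm2 and Prm3 in testes, Ccnb3-2, Ccnb2-ps and the antisense neighbours. The alternatives were 2 other filters, RLE size factors, library size alone, DESeq2 1.42.0, a replicate block, an adjusted p under 0.01, an offset of 5 counts for ratios and leaving out each library in turn. Running them for the related genes was chosen after seeing the data. Figures were drawn with matplotlib 3.10.9 in Python 3.11.15.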

Additional observations from a re-analysis of the deposited data

How the results depend on the processing

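In sperm the 3 genes called up became 1 with the replicate block (Cdc25c, while Ccnb2 and Plk1 had adjusted p = 0.05 and 0.0555 in edgeR), 0 at an adjusted p under 0.01 and 0 to 3 with 1 library left out. The 4 that were higher became 1 with the replicate block, 0 at an adjusted p under 0.01 and 0 to 5 with 1 library left out. Over all genes, 1589 called up became 0 at an adjusted p under 0.01 and 1 to 2402 with 1 library left out. The 267 called down became 149 with library size alone, 147 with the replicate block, 0 at an adjusted p under 0.01 and 1 to 443 with 1 library left out. The smallest adjusted p in sperm was 0.0118, which accounts for the counts of 0 at 0.01, and the cause of the other changes was not tested. Signs turned for Ccna2 in sperm, with log2 fold changes of 0.0076 without a filter, 0.0036 with RLE size factors and 0.083 and 0.029 without the second or the third WT library (range -0.26 to 0.13 with 1 library left out, highest without Xap5l KO replicate 3). They also turned for Cdk2 (-0.059 to 0.29, lowest without Xap5l KO replicate 3) and for the Ccne1 to Ccne2 ratio, whose log2 difference ran from -0.032 to 0.49 with 1 library left out. In testes the number called down stayed at 3 or 4, where Cdc25c crossed the 2-fold line (log2 fold change -1.01 with at least 10 counts in every library and with the replicate block, -1.10 without WT replicate 1, -1.17 without cKO replicate 1), and the number lower at 7 to 9. Cdk1 had an adjusted p of 0.0614 with the replicate block. Of 260 log2 fold changes of the 10 genes under alternatives, 233 kept their direction and their state under the call rule (adjusted p and 2-fold change together), 17 lost the call, 4 gained it and 6 turned. Most of the 233 belong to genes that were not called and stayed so, and the adjusted p under 0.01 keeps the main fold changes. The 17 losses were all in sperm, for Ccnb2 (6 of 13 alternatives), Cdc25c (5 of 13) and Plk1 (6 of 13). For genes not called, the adjusted p alone also crossed 0.05 under some alternatives, for Ccnb1 and Ccna1 in sperm and for Cdk1 and Cdk2 in testes. Replicate numbers did not pair the libraries: same-numbered deviations correlated at 0.166, -0.024 and -0.122 in sperm and between -0.0345 and 0.00711 in testes, and 2 of 6 sperm libraries and 0 of 6 testis libraries correlated best with their own number. Under the paired test no ratio can reach a p below 0.25. Counting depth limits Ccna1 in cKO testes and Cdc25c, Ccna2, Cdk1 and the E cyclins in sperm, which had the fewest reads.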
